A study of Mus musculus with 2 samples.

Results

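Il2-producing CD4 T cells were picked out of a single-cell RNA sequencing pool of mouse spleen by their own transcripts, and are called Il2-high CD4 T cells below. Counts are unique molecular identifiers (UMIs), each standing for 1 captured RNA molecule of 1 cell. Members had 200 or more genes detected, no more than 10% of UMIs from mitochondrial genes, at least 2 UMIs of Cd3d, Cd3e, Cd3g and Trac together, at least 1 UMI of Cd4 or Cd40lg, fewer than 3 UMIs of the Th2 cytokines Il4, Il5 and Il13 together, and at least 3 Il2 UMIs. Cells with a UMI of the B cell genes Cd79a and Ms4a1, the NK cell gene Ncr1, the CD8 genes Cd8a and Cd8b1 or the regulatory T cell gene Foxp3 were left out. This found 190 cells among 16829 barcodes, of which 16325 passed the quality limits. The same gate without the Il2 condition held 543 cells. In 291 of these no Il2 UMI was counted (Il2-zero CD4 T cells), and they served for comparison, while 62 cells had 1 or 2 Il2 UMIs.

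IL-2 is the growth factor that helper T cells release within hours of activation. It acts on the cells that make it, on CD8 T cells and NK cells, and above all on regulatory T cells, which carry the high-affinity receptor chain encoded by Il2ra but make little IL-2 themselves. Calcium signalling through calcineurin and NFAT, together with AP-1 and NF-kappaB, switches the gene on, and PMA with ionomycin drives these routes without the T cell receptor, so that cells able to transcribe the gene do so at the same time.

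The spleen cells came from wild-type C57BL/6 mice, 8 weeks old, which had all been sensitized to ovalbumin (OVA) on days 0 and 10. They were then left untreated, given Standard therapy (OVA in PBS on days 20, 22 and 24, then OVA in Alum on days 40 and 60), or given DCIR2-Fp, a fusion protein that carries OVA to the dendritic cell receptor DCIR2, on days 20, 22 and 24. All mice were challenged with OVA on day 80, and the spleen cells of all 3 conditions were stimulated in culture with PMA and ionomycin for 3 h. CD11b- and CD11b+ leukocytes were sorted, mixed in equal parts and sequenced as 1 pool with 4 hashtags, numbered 9 to 12. The sources used here do not pair the hashtags with the conditions, so each hashtag is an unlabelled sample and no comparison between therapies was made. An unstimulated control was not analysed here. The sort enriches myeloid cells, so the number of T cells does not reflect their share of the spleen. Members had a median depth of 7917.5 UMIs (2745 to 40672) and Il2-zero cells of 6693 (1487 to 40733). The median shares of ribosomal protein UMIs were 22.2% and 24.3%, and those of mitochondrial UMIs 1.44% and 1.51%. The 16829 barcodes are all different, and the gene expression and hashtag counts belong to the same barcodes.

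A level is the summed count of a gene in a gate, scaled to 1000000 UMIs of that gate (CPM). Its range in parentheses is the exact Poisson 95% interval, and that of a share of cells the exact Clopper-Pearson interval. Ratios are CPM in Il2-high over CPM in Il2-zero cells, with an exact conditional interval. The hashtags carry no group label and were not treated as replicates, so the gates were not compared by a test and the ratios describe these cells. The intervals cover counting error only and are too narrow for genes that few cells make.

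The mouse Il2 gene (ENSMUSG00000027720) lies on the minus strand of chromosome 3, at chr3:37120523-37125959 in GRCm38. GENCODE gives it 4 exons. Reads of a 3′ library fall near its last exon, chr3:37120523-37121217. The gene of a related cytokine, Il21 (chr3:37222759-37232636, minus strand), is its neighbour, 96799 bases away, with 0 annotated protein coding genes between them. The bases just before the start of Il2, Il21 and Tnf are shown, because of the 9 genes searched these were the 3 with a motif match, a choice made after the matches were seen. Capitals mark matches to the NFAT core GGAAAA on either strand, the 1 motif of 4 searched that was found in these stretches. The sequences are those of RefSeq for GRCm38.p6, 5′ to 3′ along the gene, and end before the first annotated transcribed base. They lie at chr3:37125960-37126204 for Il2, chr3:37232637-37232886 for Il21 and chr17:35202008-35202257 for Tnf, all on the minus strand.
Il2: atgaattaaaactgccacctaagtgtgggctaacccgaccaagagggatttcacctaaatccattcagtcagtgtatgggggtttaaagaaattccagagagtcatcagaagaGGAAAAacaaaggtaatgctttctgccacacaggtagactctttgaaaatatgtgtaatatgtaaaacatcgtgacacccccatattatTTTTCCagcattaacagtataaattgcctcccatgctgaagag
Il21: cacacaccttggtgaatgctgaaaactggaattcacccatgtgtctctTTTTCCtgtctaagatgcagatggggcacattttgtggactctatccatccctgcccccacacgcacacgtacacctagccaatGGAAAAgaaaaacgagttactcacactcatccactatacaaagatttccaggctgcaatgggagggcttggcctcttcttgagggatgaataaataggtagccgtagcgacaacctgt
Tnf: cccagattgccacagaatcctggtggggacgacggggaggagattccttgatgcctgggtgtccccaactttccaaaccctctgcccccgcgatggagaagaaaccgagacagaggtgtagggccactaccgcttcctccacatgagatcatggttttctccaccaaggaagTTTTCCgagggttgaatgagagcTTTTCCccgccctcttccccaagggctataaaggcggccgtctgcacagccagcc

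Counted from the RefSeq start, the Il2 matches lie at -137 to -132 and at -48 to -43, those of Il21 at -202 to -197 and -118 to -113, and those of Tnf at -78 to -73 and -55 to -50. In windows of 250 bases before to 50 bases after the start, GGAAAA was present in 23.4% of 32851 RefSeq promoters. The other motifs searched, on both strands as well, were TGANTCA (AP-1) in 7.81%, an NF-kappaB motif in 1.20% and ATGNAAAT (octamer) in 5.67% of promoters. None of the 4 motifs was found in the windows of Ifng, Tnfsf8, Tnfsf11, Tnfrsf4, Cd200 or Slamf6, which says only that these letters are not there. Of the 64 genes at least 2-fold higher in the members that have a promoter entry, 19 (29.7%) held GGAAAA and 8 (12.5%) TGANTCA, against 21.5% and 4.64% of the 5372 genes compared that have one. A match is a description of letters and not a site.

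Il2 chose the cells, so its level is a description. The members held 5660 Il2 UMIs, between 3 and 311 per cell with a median of 9 and quartiles of 5.25 and 26.75. The output was uneven, since the 19 richest cells held 53.6% of the UMIs. At the border of the rule, 14 members had exactly 3 Il2 UMIs, and just outside it 27 cells had 2 and 35 cells had 1. The level was 3221 CPM (3137 to 3306) in the members and 157 CPM (126 to 194) in the 62 cells with 1 or 2 UMIs. Free RNA in the droplets can place a UMI in a cell that does not express the gene. B cells, which should lack Il2, had 5.84 CPM, with at least 1 Il2 UMI in 1.85% of 2267 cells and at least 3 in 0.132%, at a deeper median of 9276 UMIs. At least 3 Il2 UMIs were thus rare in this B cell gate. It took cells with at least 2 UMIs of Cd79a and Ms4a1 together and no UMI of Cd3d, Cd3e, Cd3g, Trac or Ncr1. B cells that held T cell RNA of these genes were left out, so the low share is partly set by the gate. It does not measure how much free RNA the members held.

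The members held 25.4% of the 22324 Il2 UMIs of all cells past the quality limits, and they were 190 of the 651 such cells with at least 3 Il2 UMIs. Of the 651, 410 were in the T cell receptor gate, which is the T cell receptor step with no Cd79a, Ms4a1 or Ncr1 UMI. This gate held 13498 of the Il2 UMIs, so T cells other than the members also held Il2. The remaining cells and Il2 UMIs lay outside this gate, and their source was not tested. The level was 15335 CPM (14908 to 15770) in the 34 cells of the same gate with at least 3 UMIs of Il4, Il5 and Il13, the Th2 cytokine gate. It was 321 CPM (291 to 353) in the 88 cells with a Foxp3 UMI and 193 CPM (183 to 204) in the 552 cells of a CD8 gate (Cd8a or Cd8b1, no Cd4, no Foxp3). The members were selected on Il2 and these gates were not, so the levels are not ranked. The conventional gate with any Il2 count, which was not selected on Il2 either, was at 1254 CPM.

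Cd40lg and Cd4 belong to the rule, so their values describe the gates and do not check the label. Cd40lg (chrX:57212143-57224042), the CD40 ligand by which helper T cells activate B cells and dendritic cells, had a UMI in 96.8% of the members and 78.4% of the Il2-zero cells, at 893 CPM (849 to 938) and 521 CPM (492 to 552). Cd4 had a UMI in 25.8% and 40.5%, at 43.2 CPM (34.1 to 54.1) and 87.1 CPM (75.4 to 100.2). Of the 190 members, 141 entered by Cd40lg without a Cd4 UMI, as did 173 of the 291 Il2-zero cells. Most members are therefore called CD4 T cells by Cd40lg. Among markers the rule did not use, Zbtb7b, which encodes the CD4 lineage factor ThPOK, had 3 and 10 UMIs, too few to check the CD4 lineage. The T cell receptor genes Trbc1 (458 and 543 CPM) and Trbc2 (665 and 734 CPM) were present in both. When a Cd4 UMI was required in both gates, 49 members and 118 Il2-zero cells were left. Ratios were then 6.58 for Ifng, 3.43 for Tnf, 1.80 for Tnfrsf4, 0.251 for Maf, 0.134 for Tcf7, 0.276 for Cxcr6, 0.444 for Lef1, 14.8 for Cxcl10 and 4.88 for Cd200, and those of Il21 and Tnfsf11 stand with their results.

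Among 6703 genes with at least 50 UMIs in both gates together, the genes of the rule left out, 80 (1.19%) were at least 2-fold higher and 163 (2.43%) at least 2-fold lower in the members. The median ratio was 0.977, with both gates scaled to the same total. The plot of all genes shows the level of each gene in both gates.

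**Figure D1:**
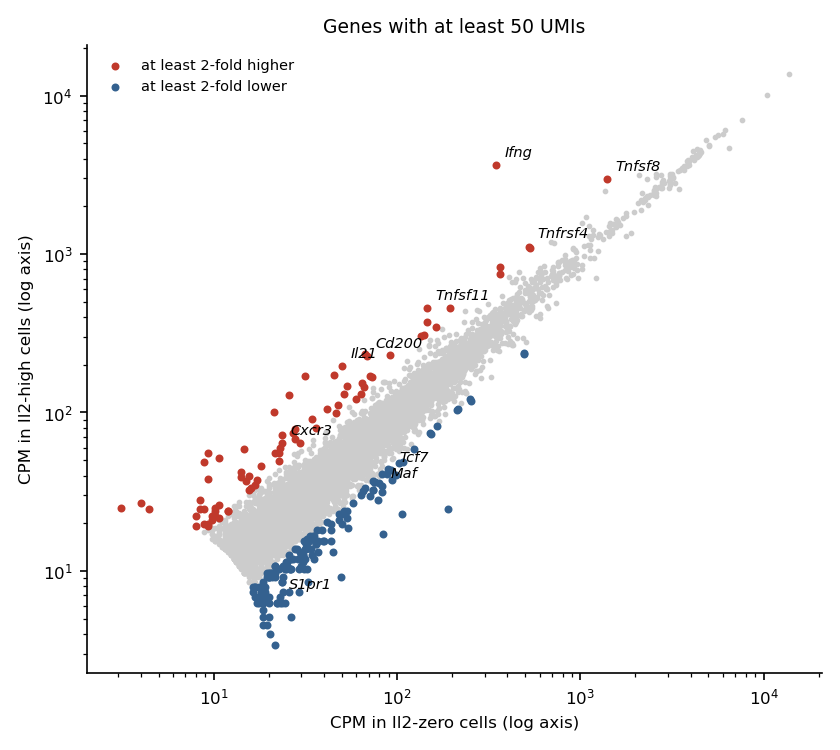
Level in Il2-high (y axis) against Il2-zero CD4 T cells (x axis), both in CPM on log axes, of genes with at least 50 UMIs in both gates together and a UMI in each gate; the genes of the rule are left out. Most genes lie along the diagonal, and Ifng is far above it at 3640 against 349 CPM.

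Ifng (chr10:118441046-118445892), the Th1 cytokine that activates macrophages, was at 3640 CPM (3551 to 3730) in the members and 349 CPM (325 to 374) in Il2-zero cells, a ratio of 10.4 (9.70 to 11.3). By hashtag, 9 to 12 in order, Ifng was at 2928.5, 5619, 1441 and 3338 CPM in the members and at 103, 642, 95.9 and 126 CPM in Il2-zero cells. Every hashtag of the members lay above every hashtag of the Il2-zero cells. How many of all genes had such sets without overlap was not counted, so this is a description, here and for the genes below. At least 3 Ifng UMIs were counted in 39.5% of the members (32.5 to 46.8), 13.4% of the Il2-zero cells (9.71 to 17.9) and 1.46% of the B cells. With each cell thinned to 2000 UMIs, these shares were 32.6%, 6.92% and 0.441%, over 190 members and 289 Il2-zero cells deep enough. The difference leaned on the cells richest in Il2. Without the 44 members with 30 or more Il2 UMIs, the Ifng ratio was 2.78, and it was 13.2 without the cells of hashtag 10. With only cells of 1 hashtag, it was 11.3, and 22.9 when hashtag 10 was left out of these as well.

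Il21, which supports B cell help and is made by follicular helper and other CD4 T cells, was at 196 CPM (176 to 218) against 49.98 CPM (41.2 to 60.1), a ratio of 3.92 (3.16 to 4.89). The members of hashtags 9 to 12 had 166, 317, 148 and 157 CPM and the Il2-zero cells 5.41, 42.6, 45.4 and 49.7 CPM. The 2 sets of hashtags did not overlap, and hashtag 10 was high among the members. At least 3 Il21 UMIs were counted in 20.5% of the members (15.0 to 27.0) and 4.12% of the Il2-zero cells (2.15 to 7.09). In the B cell gate it was 0 of 2267 cells, with an upper limit of 0.163% by the exact interval. Without the 44 cells richest in Il2, the ratio was 1.95, and with a Cd4 UMI required it was 2.20. After thinning to 2000 UMIs per cell it was 2.44.

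Tnf (chr17:35199381-35202007), a pro-inflammatory cytokine that myeloid and B cells also make, was at 154 CPM (136 to 174) against 64.6 CPM (54.5 to 75.9), a ratio of 2.39 (1.95 to 2.94). The hashtags 9 to 12 gave 61.5, 244, 187 and 93.1 CPM in the members and 91.9, 45.4, 114 and 26.5 CPM in Il2-zero cells. The sets overlapped, and in hashtag 9 the members were lower. Of its UMIs in the members, 20.7% came from 1 cell. Without the 44 cells richest in Il2, the ratio was 1.10, and without hashtag 10 it was 1.62. At least 3 Tnf UMIs were counted in 13.7% of the members, 5.15% of the Il2-zero cells and 6.00% of the B cells.

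Of the 17 other cytokines listed, 11 had at least 50 UMIs, 4 were at least 2-fold higher and 2 at least 2-fold lower. The median ratio was 0.990, counting Il3 with its 0 set to 3 UMIs. Il3, a growth factor for mast cells and basophils, had 81 UMIs in the members and 0 in Il2-zero cells, so it passed the 50 UMIs through the members alone. With the 0 set to 3 counts its ratio was 34.7, and the exact interval gave a lower limit of 27.6. However, 76.5% of its UMIs were in 1 cell, it was seen in 4 cells, and under the alternatives its ratio fell to as low as 5.58. Il17a and Il17f were lower at ratios of 0.128 and 0.214, and these rest on single cells too, since all 431 Il17a UMIs of the Il2-zero cells were in 1 cell. Csf2, which encodes GM-CSF, stayed at 3 and 22 UMIs and Il9 at 0 in both. Lta (0.984) and Tgfb1 (0.990) had ratios near 1.

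Combinations of Ifng, Tnf and Il21 were counted per cell at 3 UMIs or more. None of the 3 was present in 95 members and 235 Il2-zero cells (80.8%). Ifng alone was found in 39 members and 29 Il2-zero cells, Ifng with Il21 in 20 and 9, and Ifng with Tnf in 8 and 1. All 3 were present in 8 members and 0 Il2-zero cells. Each share depends on the depth of the cells, which was higher in the members.

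**Figure D2:**
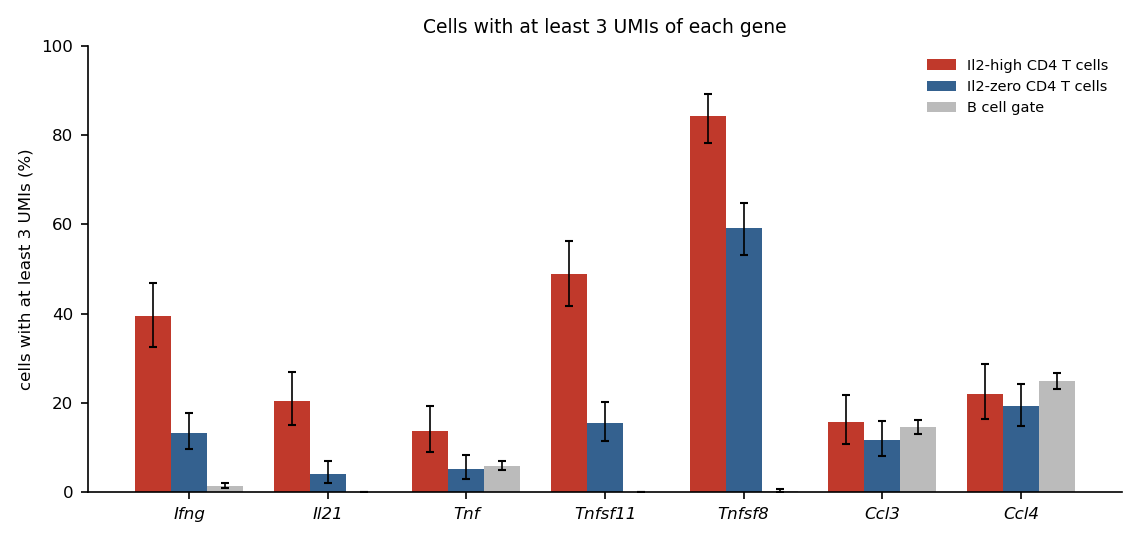
Share of cells with at least 3 UMIs of each gene (y axis, percent) in Il2-high CD4 T cells, Il2-zero CD4 T cells and the B cell gate; error bars are exact 95% intervals for counting error. Ifng, Il21, Tnfsf11 and Tnfsf8 stand above the B cell gate, whereas Ccl3 and Ccl4 are about as frequent in B cells.

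Ligands of the TNF family were the next group. Of 8 listed, 5 were measured at 50 UMIs or more, of which 2 were at least 2-fold higher and 0 lower, with a median ratio of 1.93. Tnfsf8 (chr4:63831308-63861347), which encodes CD30 ligand, was the most abundant of the 8 at 2981 CPM (2900 to 3062) against 1400 CPM (1352 to 1450), a ratio of 2.13 (2.04 to 2.225). Its hashtag values were 2172, 4343, 2413 and 2423 CPM in the members and 800.1, 1920, 600.4 and 1719 CPM in Il2-zero cells. The sets did not overlap. At least 3 UMIs were counted in 84.2% of the members, 59.1% of the Il2-zero cells and 0.397% of the B cells. The Tnfsf8 ratio was 1.78 without the 44 cells richest in Il2, 1.91 at 1 or more Il2 UMIs and 1.86 without hashtag 11.

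Tnfsf11 (chr14:78277445-78308043), which encodes RANKL, a ligand that acts on dendritic cells and osteoclasts, was at 456 CPM (425 to 489) against 146 CPM (131 to 163), a ratio of 3.12 (2.74 to 3.55). The hashtags gave 511, 523, 582.5 and 391.6 CPM in the members and 119, 162, 173 and 113 CPM in Il2-zero cells. The members were well above in each hashtag and the sets did not overlap. In cells, 48.9% of the members (41.6 to 56.3) and 15.5% of the Il2-zero cells (11.5 to 20.1) had at least 3 UMIs, and 0 B cells did. With a Cd4 UMI required the ratio was 4.51. Tnfsf14, which encodes LIGHT, was at a ratio of 1.93 (1.26 to 2.99), Fasl at 1.26 and Tnfsf10 at 0.827.

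Among receptors, Tnfrsf4 (chr4:156013843-156016612), which encodes the costimulatory receptor OX40, was at 1115 CPM (1066 to 1166) against 527 CPM (498 to 558), a ratio of 2.12 (1.97 to 2.28). The members of the 4 hashtags had 1464, 1318, 837 and 1393 CPM and the Il2-zero cells 508, 650.1, 293 and 659 CPM, with no overlap. Slamf6 (chr1:171917515-171953170), an adhesion and signalling receptor of T cells, was at 131 against 51.3 CPM (ratio 2.56, 2.04 to 3.23). These were the 2 of 12 costimulatory and activation receptors past 2-fold, and the list had a median ratio of 0.980. The ratio of Tnfrsf4 was under 2 with a Cd4 UMI required (1.80), at 1 or more Il2 UMIs (1.87), without the 44 cells richest in Il2 (1.88) and without hashtag 11 (1.95). Cd27 (0.540) and Tnfrsf9, which encodes 4-1BB (0.664), were lower, the latter in 2 of 4 hashtags. Of 10 checkpoint receptors, Cd200 (chr16:45382135-45409053), the ligand of an inhibitory receptor on myeloid cells, was the 1 past 2-fold, at 228 CPM (206 to 251.1) against 68.6 CPM (58.2 to 80.2), a ratio of 3.32 (2.75 to 4.02). It gave 449, 190.3, 179 and 286 CPM in the members and 43.2, 55.4, 75.7 and 109 CPM in Il2-zero cells, again without overlap. Pdcd1 had a ratio of 1.54 (1.08 to 2.21), Ctla4 of 1.12, Lag3 of 0.708 and Tigit of 0.643. The neuropilin receptor gene Nrp1 had 372 against 146 CPM (ratio 2.55, 2.23 to 2.92), and a ratio of 1.84 without the 44 cells richest in Il2.

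**Figure D3:**
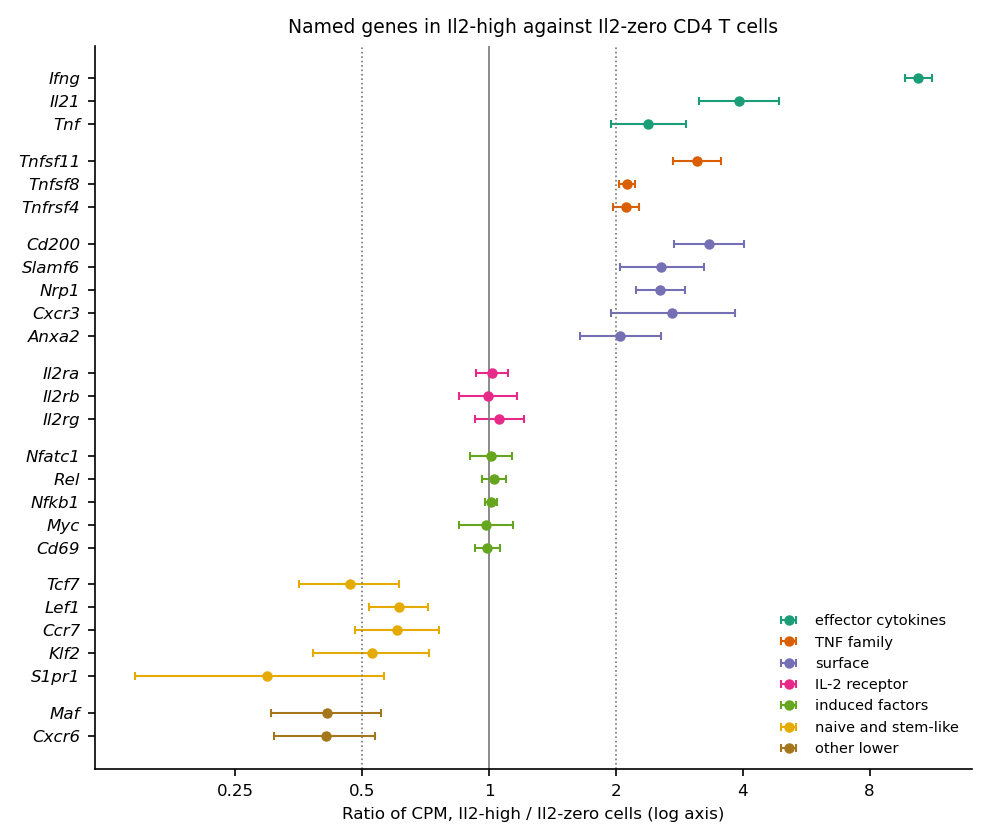
Ratio of CPM in Il2-high over Il2-zero CD4 T cells (x axis, log axis) for named genes (y axis), coloured by group; points are ratios and bars exact 95% intervals for counting error. The solid line marks 1 and the dotted lines 2-fold. Ifng stands at 10.4, the IL-2 receptor genes and induced factors lie around 1, and the naive genes are below 1.

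None of the 11 measured genes of the IL-2 receptor and its signalling was past 2-fold, with a median ratio of 1.02. Il2ra, the high-affinity chain, was at 538 CPM (505 to 574) and 529 CPM (499 to 560), a ratio of 1.02 (0.933 to 1.11). Il2rb had a ratio of 0.994 (0.848 to 1.16) and Il2rg of 1.06 (0.924 to 1.21). Cish, a feedback inhibitor that STAT5 induces, was at 1.48 (1.25 to 1.75) and higher in 4 of 4 hashtags. Jak1, the kinase on Il2rb, was at 0.701 (0.626 to 0.784) and lower in 4 of 4.

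The 9 measured NFAT and calcineurin genes gave 0 past 2-fold in either direction and a median of 0.985, the 12 AP-1 and BATF genes 0 and 0.989, and the 12 NF-kappaB genes 0 and 1.07. Nfatc1 was at 305 and 302 CPM (ratio 1.01, 0.900 to 1.13), Rel at 884 and 860 CPM (1.03, 0.960 to 1.10) and Nfkb1 at 3898 and 3856 CPM (1.01, 0.979 to 1.04). These are transcripts, and the position of the proteins in the cell was not measured. In the NFAT list, Nfat5, which answers osmotic stress, was at 1.56 (1.44 to 1.70), the calcineurin subunit gene Ppp3ca at 0.648, Nfatc3 at 0.679 and Nfatc2 at 0.522 (0.266 to 0.974), the last from 15 and 37 UMIs. Of 12 Egr, Nr4a and other induced factors, 10 had ratios above 1 and the median was 1.23, with 0 past 2-fold. Egr3 was at 1.46 (1.16 to 1.84), Egr2 at 1.21, Nr4a3 at 1.17 and Myc at 0.983. The early activation marker Cd69 was at 870 and 878 CPM (ratio 0.991, 0.926 to 1.06), with a UMI in 95.8% and 89.7% of the cells. The level of Cd69 was thus about equal in both gates.

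Of 12 genes of ribosome biogenesis, 0 were past 2-fold. Ratios lay above 1 for 11 of the 12, with a median of 1.22, against 0.977 over all 6703 genes. Ncl, which encodes nucleolin, was at 3070 and 2584 CPM (ratio 1.19, 1.14 to 1.23) and Fbl, the methyltransferase of ribosomal RNA, at 370.4 and 302 CPM (1.23, 1.10 to 1.37). Both were higher in 4 of 4 hashtags. The 15 genes of glucose, amino acid and polyamine use had a median of 1.02 and 0 past 2-fold. The list of cytokine mRNA decay had 9 regulators of it, with ratios from 0.681 to 1.34 and 0 past 2-fold. It also held Tnip3, whose product dampens NF-kappaB signalling and is not a decay factor, at 233 against 66.8 CPM (3.49, 2.89 to 4.24), and at a ratio of 1.87 in cells of 4000 to 12000 UMIs. Among the decay factors, Zc3h12a, which encodes the RNase Regnase-1, was at 0.957. Spry1, an inhibitor of MAP kinase signalling, was at 1.75 (1.48 to 2.07), and the list of MAP kinase and diacylglycerol feedback had 0 of 11 past 2-fold. The 8 measured genes associated with anergy had a median of 0.921 and 0 past 2-fold.

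Of 14 naive and stem-like genes listed, 12 were measured and 2 were at least 2-fold lower. All 12 had ratios below 1, with a median of 0.701, against 0.977 over all 6703 genes. Tcf7, the factor TCF-1 of naive and memory T cells, was at 43.2 CPM (34.1 to 54.1) against 92.4 CPM (80.3 to 106), a ratio of 0.468 (0.355 to 0.611). In the members the hashtags gave 24.6, 10.0, 93.6 and 41.7 CPM, and in Il2-zero cells 91.9, 32.7, 177 and 53.0 CPM. The members were lower within each hashtag, though the sets overlapped. The Tcf7 ratio was 0.134 with a Cd4 UMI required, 0.697 after thinning to 2000 UMIs per cell and 0.569 without the 44 cells richest in Il2. S1pr1, the receptor by which T cells leave lymphoid organs, had only 12 and 52 UMIs (ratio 0.297, 0.144 to 0.564), and its ratio was 0.662 without hashtag 11 and 0.177 without hashtag 10. Klf2, the factor that drives S1pr1, was at 0.527 (0.383 to 0.718), Lef1 at 0.610 (0.518 to 0.717) and Ccr7, a lymph node homing receptor, at 0.606 (0.481 to 0.760).

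Helper fate factors were mixed. Of 14 measured, 0 were at least 2-fold higher and 1 lower, with a median of 0.845. The lower one was Maf, a factor of IL-4, IL-10 and IL-21 producing cells, at 34.1 CPM (26.05 to 43.9) against 82.7 CPM (71.3 to 95.5), a ratio of 0.413 (0.303 to 0.555). Its hashtag values were 36.9, 40.1, 26.01 and 44.9 CPM in the members and 64.9, 105, 48.8 and 113 CPM in Il2-zero cells, without overlap. Tbx21, the Th1 factor T-bet, was at 0.827 (0.666 to 1.02) although Ifng was higher. Gata3 was at 1.07 and Bcl6 at 0.821, while Rora was at 1.92 (1.69 to 2.19) and higher in 4 of 4 hashtags. Of 5 measured chemokine receptors, Cxcr3, which draws Th1 cells to inflamed tissue, was higher at 63.7 against 23.4 CPM (2.72, 1.94 to 3.84), and at a ratio of 1.98 without the 44 cells richest in Il2. Cxcr6 was lower at 40.4 against 98.6 CPM (0.410, 0.309 to 0.537). Without cells that held a UMI of the cytotoxic genes Nkg7 or Gzma, which left 150 members and 220 Il2-zero cells, the Cxcr6 ratio turned to 1.20, that of Maf was 0.675 and that of Ifng 30.8. Of 14 memory and effector surface genes, 1 was past 2-fold, Anxa2 at 2.05 (1.64 to 2.56), and the median was 0.922. The Anxa2 ratio was 1.60 without hashtag 10 and 1.38 in cells of 4000 to 12000 UMIs. With only cells of 1 hashtag it was 2.07, and among these 1.28 without hashtag 10 and 3.11 without hashtag 11.

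The hashtag plot sets the members beside the Il2-zero cells for 8 of these genes. The 4 hashtags held 17, 59, 37 and 41 members with 1 hashtag, which were 32.1%, 36.2%, 28.9% and 46.1% of the gate. The interval of hashtag 12 (35.4 to 57.0) overlaps that of hashtag 11 (21.2 to 37.6). The other 36 members carried the tags of more than 1 sample, as did 56 Il2-zero cells. Scrublet, a doublet caller, marked 15 and 20 cells. With only cells of 1 hashtag, ratios were 11.3 for Ifng, 5.24 for Il21, 2.33 for Tnfsf8, 3.32 for Tnfsf11 and 2.35 for Tnfrsf4. Of the 80 higher genes, 47 (58.8%) were higher within each of the 4 hashtags, against 569 (8.49%) of all 6703 genes, and of the 163 lower genes, 99 (60.7%) were lower within each, against 738 (11%) of all. These genes were chosen on the same cells, so the shares describe their spread over the hashtags and are no separate check. The same holds for the sets of hashtags without overlap, which were not counted over all genes.

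**Figure D4:**
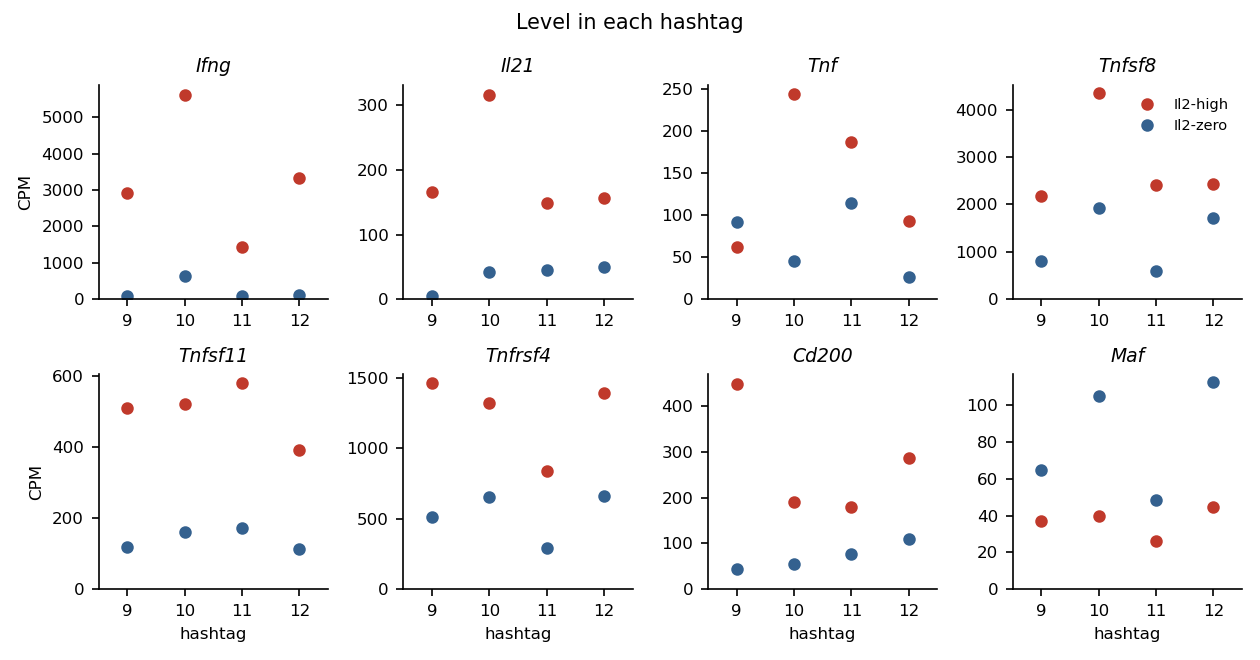
Level in CPM (y axis) in each of the 4 hashtags (x axis), for Il2-high (red) and Il2-zero (blue) CD4 T cells with 1 hashtag; each point is the summed count of 1 hashtag. Tnfsf11, Tnfrsf4 and Cd200 of the members lie above all hashtags of the Il2-zero cells, Maf lies below them, and Tnf is lower in the members of hashtag 9.

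Beyond the lists, the 12 genes with the highest ratios by the ranking rule included Angptl2, which encodes a secreted angiopoietin-like protein (5.53, 3.37 to 9.50), Areg, an epidermal growth factor receptor ligand with roles in tissue repair (2.84, 2.09 to 3.89), Ifih1, the RNA sensor MDA5 (2.77, 2.22 to 3.46), Shld1, a subunit of the shieldin complex of DNA repair (2.97), Pde11a, a phosphodiesterase (2.77), and Zfp703 (2.76). All 6 were higher in 4 of 4 hashtags. Thinned to 2000 UMIs per cell, the Pde11a ratio was 1.37. Without the 44 cells richest in Il2, it was 1.94 for Pde11a, 1.92 for Ifih1 and 1.84 for Zfp703. Without hashtag 10, the Angptl2 ratio was 8.32. With only cells of 1 hashtag, it was 7.49 for Angptl2 and 3.89 for Areg, and without hashtag 10 among these 19.5 and 7.24. The lowest ratios included Lamc1, a laminin chain (0.184, 0.102 to 0.312), Herc3 (0.293), Rasal3, a Ras inhibitor of T cells (0.338), Mt1, a metallothionein (0.348), and Cdkn1b, which encodes the cell cycle inhibitor p27 (0.390, 0.244 to 0.606). Without hashtag 11, the ratio was 0.121 for Lamc1 and 0.527 for Cdkn1b. With only cells of 1 hashtag, Mt1 was at 0.410 and Lamc1 at 0.195, and without hashtag 10 among these at 0.780 and 0.374. Ifi209 (0.351), Gbp6 (0.352) and Sp100 (0.356) were among the lowest too. Lamc1, Herc3, Ifi209 and Gbp6 were lower in 4 of 4 hashtags, and Rasal3, Mt1, Cdkn1b and Sp100 in 3 of 4, with the members higher in hashtag 9. Gimap9, a GTPase gene of lymphocytes, was at 37.6 against 93.8 CPM (0.401).

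Of 7 chemokines measured, 3 were past 2-fold higher and all 7 ratios lay above 1 in the main setting. Under the alternatives this direction did not hold for all. Ccl4 ranged from 0.860 to 2.05, Ccl5 from 0.463 to 2.23 and Xcl1 from 0.630 to 2.40. Cxcl16, with 39 and 27 UMIs, ranged from 0 to 8.57. Ccl3 was at 827 against 364 CPM (2.27), but in hashtag 10, which held the most members, it was at 341 CPM in the members and 396 CPM in Il2-zero cells. The NK gate held 5714 CPM, and 15.8% of the members, 11.7% of the Il2-zero cells and 14.6% of the B cells had at least 3 UMIs. The Ccl3 ratio was 1.03 in cells of 4000 to 12000 UMIs, 1.05 without cells with innate-like T cell or Il17 UMIs, 4.64 without cells with Nkg7 or Gzma UMIs and 1.88 without hashtag 11. With only cells of 1 hashtag it was 2.74, and 6.44 without hashtag 10 among these. The part of free RNA in these values was not tested. Cxcl10, at a ratio of 5.04 with 40.5% of its UMIs in 1 cell, became 0.599 in the same depth range, and its share of cells was lower than in B cells. Ccl1, an activated T cell chemokine, was at 170 against 31.4 CPM (5.40, 4.16 to 7.10), with a UMI in 7.89% and 2.75% of the cells, but 29.5% of its UMIs in the members were in 1 cell. The Ccl1 ratio was 3.59 without hashtag 11, 10.2 with only cells of 1 hashtag, and 21.99 without hashtag 10 among these.

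Markers of other cells were summed. The 9 B cell markers gave 1050 CPM in the members and 688 in Il2-zero cells, with Cd74 most abundant, while the defining Cd79b had 2 UMIs in the members and 0 in the others. Igkc (2.06) was 1 of 5 measured past 2-fold, and 0 were lower. The 8 myeloid markers gave 174 and 111 CPM, with Cst3 (2.53) most abundant and 48.1% of its UMIs in 1 cell. Of 3 measured, 1 was past 2-fold, and Lyz2 and Csf1r had 14 and 2 UMIs in the members. The 7 NK cell markers gave 207 and 155 CPM, led by Fcer1g, with 0 of 5 past 2-fold. The 9 CD8 and cytotoxic markers gave 972 and 768 CPM, led by Gzmb, with 0 of 7 past 2-fold. Innate-like T cell markers gave 50.1 and 66.3 CPM, led by Klra7, with 1 of 2 lower, Zbtb16 at 0.457, and Tcrg-C4 at 0 in both. Regulatory T cell markers gave 1721 and 1536 CPM, led by Il2ra, with 1 of 6 past 2-fold, Nrp1. Heat shock and stress genes had 0 of 6 past 2-fold higher and 1 lower, Ddit3 at 0.488, and T cell receptor and lineage genes 0 of 11. Without the cells that held 3 or more UMIs of Cd74, H2-Aa, Cst3, Lyz2, Igkc and Ebf1, the ratios were 11.1 for Ifng, 4.85 for Il21, 2.44 for Tnfsf8 and 3.06 for Tnfsf11. Those of Cst3 and Igkc were 0.845 and 0.761, but their own UMIs helped to decide which cells were left out, so these 2 values show no reversal. The part of these other cells in the remaining results was not tested.

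Within the gate, the levels of other genes were followed over bands of Il2 UMIs per cell of 0, 1 to 2, 3 to 9, 10 to 29 and 30 or more, with 291, 62, 97, 49 and 44 cells. The course differed between genes. Ifng was at 349, 270.5, 862, 1164 and 11501 CPM, and Tnf at 64.6, 53.0, 69.7, 73.0 and 399 CPM, so both were highest in the last band by far. Il21 was at 49.98, 51.3, 86.3, 118 and 485 CPM. Tnfsf11, at 146, 148, 313, 509 and 673 CPM, and Tnfrsf4, at 527, 589, 979, 1018 and 1476 CPM, were higher from the third band on. Ifng was higher from that band on too, and Tnfsf11 and Tnfrsf4 were also highest in the last band. Cd200 was already at 152 CPM with 1 or 2 Il2 UMIs and at 193, 273 and 247 CPM above. Lef1 was at 208, 111, 124, 187 and 69.6 CPM, with no steady order. The median depth was 6693, 6825.5, 7419, 8109 and 8681.5 UMIs in these bands, so depth went with Il2 and its part was not tested. In cells of 4000 to 12000 UMIs, ratios of members to Il2-zero cells were 11.1 for Ifng, 4.18 for Il21, 3.16 for Tnfsf11 and 2.77 for Tnfsf8. After thinning to 2000 UMIs per cell, the ratio was 10.0 for Ifng and 2.44 for Il21.

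**Figure D5:**
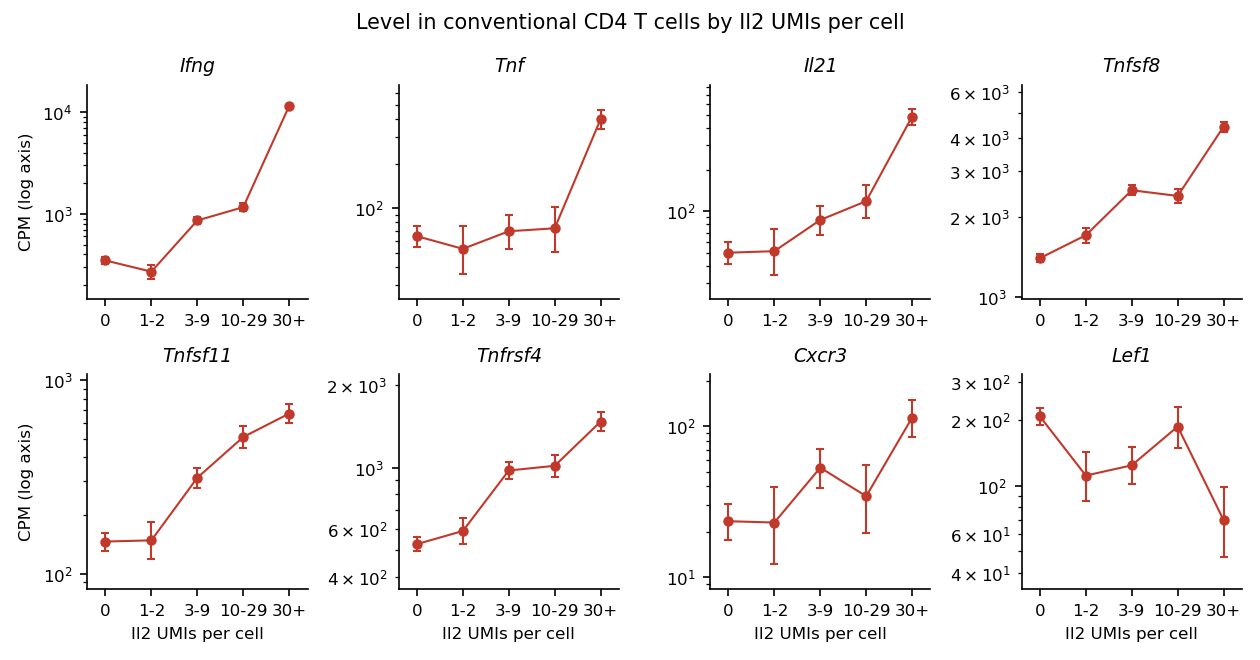
Level in CPM (y axis, log axis, a scale of its own in each panel) of 8 genes in CD4 T cells grouped by their Il2 UMIs per cell (x axis); points are summed counts and bars exact Poisson 95% intervals. Ifng, Tnf, Tnfsf11 and Tnfrsf4 are all highest in the cells with 30 or more Il2 UMIs. Ifng, Tnfsf11 and Tnfrsf4 are higher from 3 UMIs on, whereas Tnf is clearly higher in the last group only.

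Over the 543 cells, the 10 genes most like Il2 by Spearman correlation of UMIs per 10000 were Tnfsf11 (0.381), Tnfrsf4 (0.355), Tnfsf8 (0.355), Farp1 (0.353), Il21 (0.347), Cd40lg (0.336), Plscr1 (0.324), Camk2d (0.323), Eea1 (0.311) and Sla (0.303), out of 6049 candidates. The correlations are weak, the cells share 1 library, and Il2 itself had 0.130 with depth, so they serve as a description only. Cd40lg was also used by the rule.

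The members divided by Ifng as well. The 75 members with at least 3 Ifng UMIs had Il2 at 6082 CPM (5898 to 6271), and the 115 others at 1420 CPM (1349 to 1492), with median depths of 8004 and 7796 UMIs. Il21 was at 420 and 54.7 CPM, Ccl5, a chemokine of memory and cytotoxic T cells, at 1454 and 266 CPM, and Cxcr3 at 115 and 31.5 CPM. Nkg7, a granule protein gene of cytotoxic cells, was at 274 and 25.03 CPM and Tbx21 at 122 and 56.6 CPM. Lef1 was the other way round, at 76.6 and 159 CPM. Cd200, at 236 and 223 CPM, and Slamf6, at 149 and 121 CPM, were close in both. Ifng divided these cells, so the values are a description.

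In the nearest other gates of the pool, Ifng was at 2450 CPM in the Th2 cytokine gate, 1923 in the CD8 gate and 487 in the Foxp3 gate, against 3640 CPM in the members. Members with 3 to 9 and 10 to 29 Il2 UMIs had 862 and 1164 CPM, below the CD8 gate. An Ifng UMI was found in 44.2% of the members and 52.5% of the CD8 gate. Il21 was at 241 CPM in the Th2 cytokine gate, 37.5 in the Foxp3 gate and 11.95 in the CD8 gate. Tnfsf8 was at 4161, 492 and 1061 CPM and Tnfsf11 at 416, 110 and 163 CPM in these 3 gates in the same order. Cd200 was at 119, 123 and 26.8 CPM and Cxcr3 at 28.2, 29.98 and 33.5 CPM, against 228 and 63.7 CPM in the members. The members were selected on Il2 and these gates were not, so these levels do not set the members apart. A Cd200 UMI was found in 44.2% of the members, 32.4% of the Th2 cytokine gate, 64.8% of the deeper Foxp3 gate and 11.4% of the CD8 gate. The share with Cxcr3 was 26.8% in the members and 26.1% in the Foxp3 gate, and lower in the Th2 cytokine and CD8 gates. Tnfrsf4 was at 1395.5 CPM in the Th2 cytokine gate, 2680 in the Foxp3 gate and 78.2 in the CD8 gate, against 1115 CPM in the members. Il2ra was at 839, 1559 and 682 CPM in these gates, all above the members at 538 CPM. Il3 and Csf2 were at 1008 and 444 CPM in the Th2 cytokine gate and at 46.1 and 1.71 CPM in the members. These values come from 1 pool and were not tested.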

How the data were processed

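Spleen cells of mice in 3 conditions were sequenced as 1 pool on the 10x Genomics 3′ v3.1 platform with TotalSeq-A hashtags. The authors made the deposited UMI counts with Cell Ranger, without normalization, on GRCm38 (mm10). The labels and the paper give version 7.2.0 and the matrix header 7.0.0. The matrix held 32285 genes and 16829 barcodes with 137010302 gene UMIs (median 6334, 502 to 98727 per barcode).

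Gates, CPM and intervals were computed in Python 3.11.15 (NumPy 2.4.6, SciPy 1.17.1, pandas 2.3.3), and figures drawn with matplotlib 3.10.9. A ratio was called at 2-fold or more among genes with at least 50 UMIs in both gates together, and 0 UMIs in 1 gate were set to 3. A group with 0 UMIs allows up to 3. Hashtags were called with HTODemux (Seurat 5.3.0, R 4.3.3, positive quantile 0.85) over T cells, and doublets with Scrublet (scanpy 1.11.5, expected rate 0.1), used as an alternative only. Doublets were otherwise kept. The calculation was tested on simulated data.

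Named genes are members of the 27 gene lists with at least 50 UMIs. They also include the 12 highest and 12 lowest ratios among genes with at least 100 UMIs of which 1 cell held at most 20%. The 10 genes most correlated with Il2 were listed apart. Those of them that are not named genes, such as Farp1, were not run through the alternatives. Hashtag, promoter and Ifng-divided values were chosen among the named genes. Cells, lists and genes were chosen with earlier results of these data known. Alternatives were a stricter filter, hashtag singlets, Scrublet, a Cd4 requirement, other Il2 limits, a depth range, thinning to 2000 UMIs, other scalings, UMI limits and folds, leaving out the richest cell of each gene and each hashtag. Comparisons between therapies were left out.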

Additional observations from a re-analysis of the deposited data

Results flagged for a closer look

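In 8 values compared over the 4 hashtags, 2 had 1 hashtag far from the other 3 by Dixon's test, which chance gives in about 1 of 20 sets of samples. In Il2-high cells, Il21 was at 317 CPM in hashtag 10, against 148 to 166 CPM in the others, and Tnfsf8 was at 4343 CPM in the same hashtag, against 2172 to 2423 CPM. The hashtags are unlabelled samples and may differ in their therapy, which cannot be told apart here.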

How the results depend on the processing

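The pool has 1 library, so the values depend on few cells, and genes near the limit of 50 UMIs are imprecise. No test paired by hashtag was run, since the labels do not say what each hashtag is, and values within each hashtag are given instead. Each hashtag was left out in turn, once from all cells, keeping those with several tags, and once, chosen after seeing the data, from cells with 1 hashtag only. The ranges cover both. The number of members was 190, with 49 when a Cd4 UMI was required, 93 at 10 Il2 UMIs or more and 95 to 173 without 1 hashtag (154 with 1 hashtag only). Genes at least 2-fold higher (80) and lower (163) were 51 and 65 after thinning to 2000 UMIs, 205 and 427 at 20 UMIs or more, 34 and 34 at 200 UMIs or more, 320 and 642 at 1.5-fold, and 73 to 108 and 126 to 178 without 1 hashtag (91 and 148 with cells of 1 hashtag only). Lower genes were 260 at 10 Il2 UMIs or more. Without cells with Nkg7 or Gzma UMIs, an alternative chosen after seeing the data like the one on antigen-presenting cell UMIs (Cd74, H2-Aa, Cst3, Lyz2, Igkc and Ebf1), the counts were 135 and 100. The other alternatives chosen after seeing the data left out innate-like cells and cells with 30 or more Il2 UMIs.

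Among the 44 named genes past 2-fold, 6 turned to the other side of 1, and the cause was not tested. Named genes under 2-fold that crossed 1 are not counted here. Requiring a Cd4 UMI gave 0.461 for Igkc. In cells of 4000 to 12000 UMIs, Cxcl10 was at 0.599, Cst3 at 0.565, Igkc at 0.848, Il17f at 8.34 and Il17a at 21.5. Without the richest cell, Il17f was at 2.21. Without antigen-presenting cell UMIs, Cxcl10 was at 0.705, Cst3 at 0.845, Igkc at 0.761, Il17f at 8.03 and Il17a at 20.7. Cst3 and Igkc are themselves genes of that filter, so their values there show no reversal. Without Nkg7 or Gzma UMIs, Igkc was at 0.904, Cxcr6 at 1.20 and Il17f at 7.04. Without 1 hashtag, Cst3 ranged from 0.967 to 3.68, Igkc from 0.669 to 3.04 and Il17f from 0.169 to 4.20. With cells of 1 hashtag only and none left out, Cst3 was at 1.53, Igkc at 1.10 and Il17f at 0.221. Over all alternatives, Tnfsf11 stayed between 2.60 and 4.51, Cd200 between 2.50 and 4.88, Slamf6 between 2.27 and 3.43, and Lef1 between 0.444 and 0.704.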
